A study of Gallus gallus with 23 samples.

Results

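The genes described here are 36 DNA replication genes of S phase, measured in growth plate cartilage of the embryonic chick. They were the genes of a list of replication factors, taken wherever a probe set of the array carried that symbol and no other, and each of the 36 had exactly 1 such probe set. The list was chosen with earlier results of these data known. They are 36 of the 11528 gene symbols and 36 of the 20804 probe sets of the array. All 36 passed the filter on low variation (a standard deviation above 10 on the linear scale over the 23 arrays), which left 11004 probe sets for testing.

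The study asked how limb movement bears on growth of individual skeletal elements, and hybridised RNA from the distal femur and the proximal tibia (called the tibiotarsus in the study's methods) to Affymetrix chicken arrays. Control embryos, which received vehicle (Tyrode's solution), were sampled at embryonic day 12 (E12, 3 arrays of each element), at E13 (3 of each) and at E15 (2 of the femur, 3 of the tibia). Immobilised embryos received decamethonium bromide, which keeps muscle in rigid paralysis, from day 10 onwards and were sampled at E15 (3 arrays of each element). Neither the labels nor the methods give a genetic modification or a strain. Each array held cartilage pooled from 4 embryos, so an SD below is a spread between pools. Whether femur and tibia pools came from the same embryos is not stated, and the main fit treats all arrays as independent. If embryos were shared, standard errors over both elements may be too small. The methods state that an array was left out after a principal component analysis, and the E15 control femur group rests on 2.

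Before a cell divides it copies its genome once. The origin recognition complex marks the start sites, CDT1 helps to load the MCM helicase onto them, and the protein geminin blocks CDT1 until the next cycle. CDC45 and the GINS complex then activate the helicase, polymerases extend primers behind it, a ring-shaped clamp put on by clamp loaders keeps the polymerases in place, and ribonucleotide reductase supplies the deoxynucleotides. The roles named below are those known from work in yeast, frog, mouse and human cells. In a growth plate, chondrocytes divide in the proliferative zone and leave the cell cycle as they enlarge in the hypertrophic zone. In a sample of whole cartilage, fewer cycling cells and less of an mRNA per cell cannot be told apart.

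Values are log2 RMA values, which the authors deposited. The median of an array lay between 5.78 and 5.85, and the means of the 36 probe sets lay between 6.17 and 9.62, or between the 54.5 and the 94.4 percentile of all probe sets. Probe sets differ in how brightly they hybridise, so levels were not compared between genes. Arrays of one group correlated at 0.963 to 0.983 over the 11004 probe sets past the filter and arrays of different groups at 0.923 to 0.980, and no pair of arrays held identical values. One array stood apart for these genes: tibia replicate 3 of the E15 controls was the lowest of its group in 26 of the 36, at a mean deviation of −0.26 from the genes' means, against −0.11 and −0.056 on the other arrays of that group. It is kept, and the main counts and medians that rest on it are also given without it. Counts of arrays without overlap, of stage order, within an array code and of other gene lists are given only with it.

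**Figure D1:**
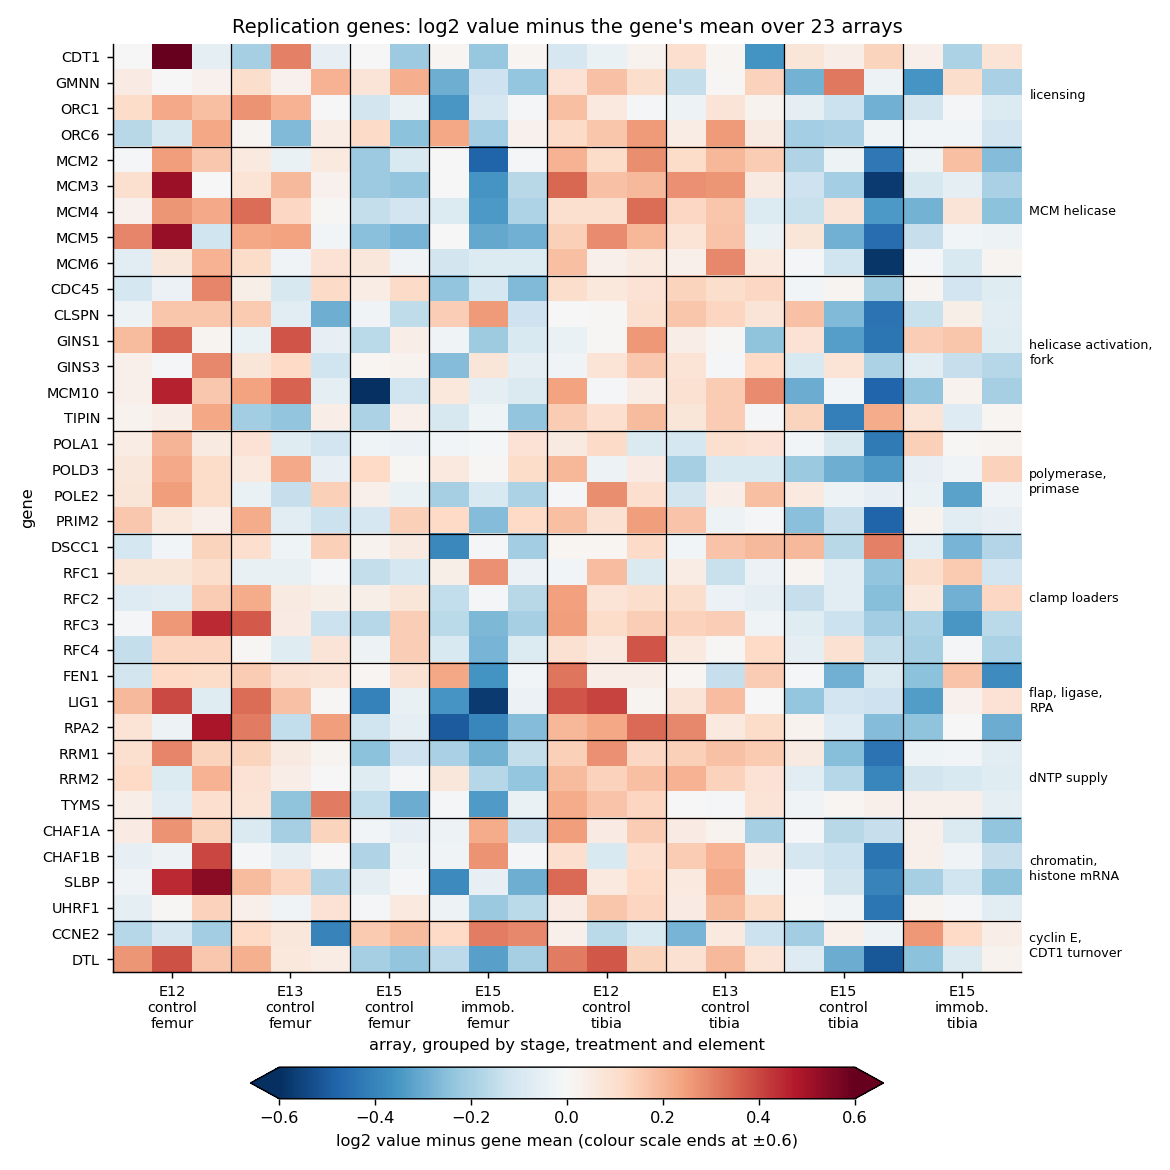
Each row is 1 of the 36 genes, grouped by role, each column 1 of the 23 arrays, and the colour gives the log2 value minus that gene's mean over all arrays (scale ends at −0.6 and 0.6). Red cells gather on the E12 and E13 arrays and blue cells on the E15 arrays of both treatments, with the last E15 control tibia array the bluest.

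The first comparison asked how the genes changed with age in control embryos, as E15 minus the mean of E12 and E13, averaged over femur and tibia. Of the 36 genes, 12 fell and 0 rose at an adjusted p under 0.05 (limma, Benjamini-Hochberg over 11004 probe sets). That is 33.3% of them, where 12.6% of all probe sets fell and 10.8% rose, and shares of all probe sets are over these 11004. The 36 were chosen with earlier results of these data known, and these shares were not tested against each other. The 12 were DTL, RRM1, MCM3, MCM10, MCM5, RRM2, ORC1, MCM2, LIG1, MCM4, RPA2 and CHAF1B, with log2 differences from −0.48 to −0.23. The median over all 36 genes was −0.18, while the median over all probe sets was 0, and 33 of 36 lay below 0 against 49.9% of all probe sets. At an unadjusted p under 0.05 the count was 20.

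Each element was also fitted by itself. In the femur 4 of 36 fell (DTL, MCM10, RRM1 and MCM5; 11.1%, against 6.97% of all probe sets), the median was −0.10, and 30 of 36 lay below 0 against 47.6% of all probe sets. In the tibia 9 of 36 fell (DTL, RRM1, RRM2, MCM3, PRIM2, POLD3, MCM6, MCM2 and UHRF1; 25%, against 5.72%), the median was −0.26, and 33 lay below 0 against 52% of all probe sets. The change in the femur minus that in the tibia was called for 0 of the 36 and for 0 of all probe sets (limma, 2 of the 36 at an unadjusted p under 0.05). Its median over the genes was 0.089, and 9 of 36 lay below 0 against 45.7% of all probe sets. Without tibia replicate 3 of E15 the median was 0.036, with 14 of 36 below 0.

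These counts depended on single E15 arrays. Without tibia replicate 3 the tibia count went from 9 to 1 (DTL) and the count over both elements from 12 to 8, with medians of −0.17 and −0.16. Without femur replicate 1 the femur count went from 4 to 0 and that over both elements from 12 to 5, and the 5 were DTL, RRM1, MCM3, MCM10 and MCM5. Without femur replicate 2 the femur count was 1. Among the 8 fits that left out an array, the femur call was lost in 6 for MCM5, 5 for RRM1, 2 for DTL and 1 for MCM10. The tibia call of MCM2 was lost in 7 of 9 such fits. The labels also carry a code per array that ends in 05, 07 or 09, whose meaning they do not give. All E15 femur arrays end in 05, and no E15 tibia array does, so element and code cannot be told apart among E15 arrays. Among femur arrays of code 05 alone the median was −0.15 and 25 of 36 genes lay below 0 (2 arrays against 2). Both younger arrays there are of E12, so this is E15 minus E12. All E13 femur arrays end in 07, so code and the femur change from E13 to E15 cannot be told apart. Among tibia arrays the median was −0.23 for code 09 (1 E15 array against 3) and −0.27 for code 07 (2 against 2). In each, 33 of 36 lay below 0. The 2 E15 arrays of code 07 include tibia replicate 3, and the code 07 median is not given without it.

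**Figure D2:**
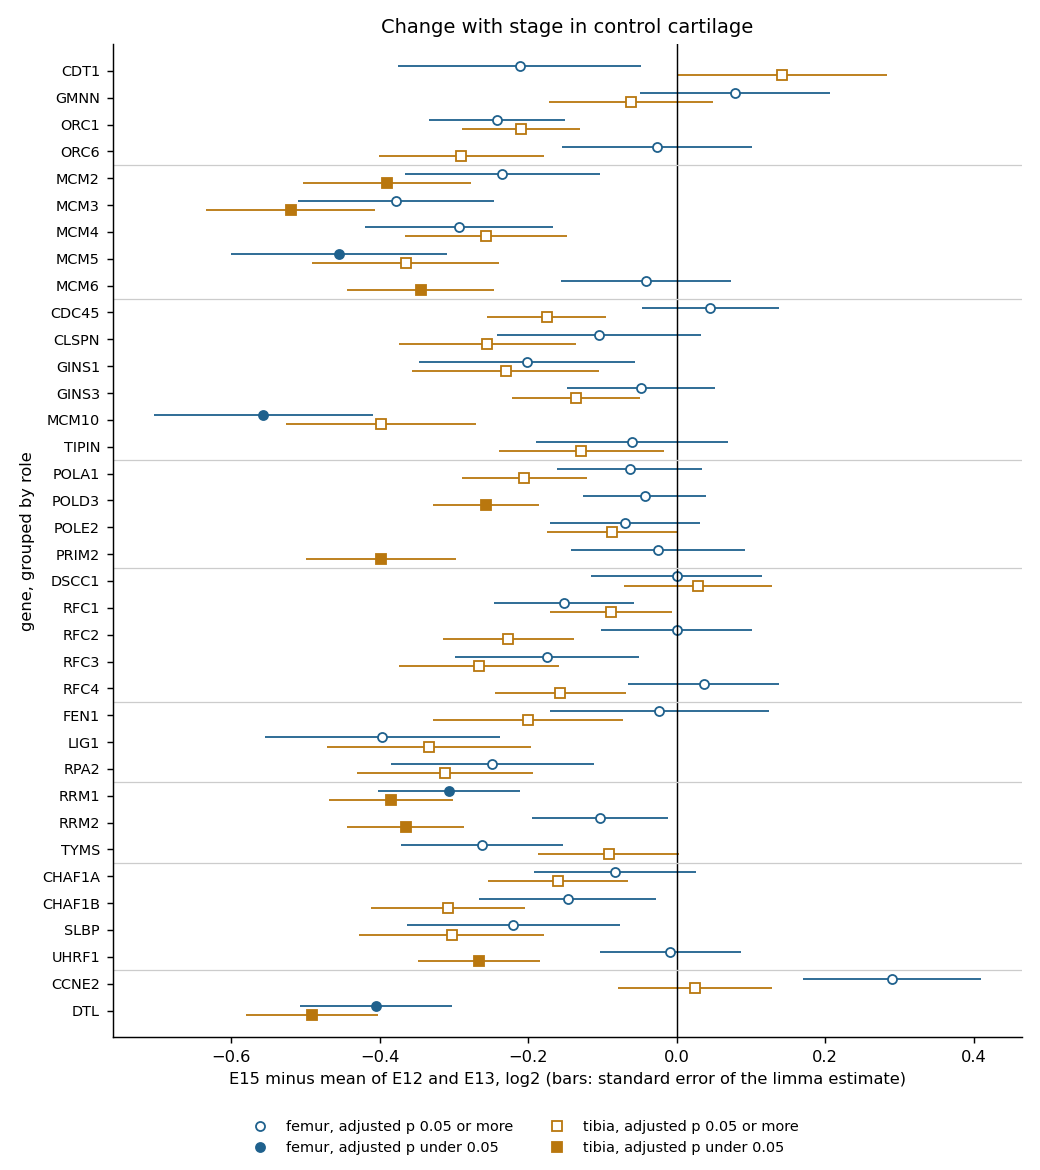
For each of the 36 genes the points give the log2 difference of E15 minus the mean of E12 and E13 in control femur (circles) and tibia (squares), with the standard error of the limma estimate, and filled points have an adjusted p under 0.05. Nearly all points lie left of 0, with 4 filled circles and 9 filled squares, and CCNE2 in the femur (0.29) is the point farthest to the right.

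The counts by role that follow stand against 12.6% of all probe sets that fell over both elements. In the femur alone that share was 6.97% and in the tibia 5.72%. Roles hold few genes, so a count of 1 says little about a role. Among the genes of origin recognition and licensing, 1 of 4 fell. ORC1, the largest subunit of the origin recognition complex, read 6.84 to 7.11 on the 6 femur arrays of E12 and E13 (median 7.035) and 6.73 and 6.80 at E15. In the tibia it read 6.81 to 7.02 (median 6.88) and then 6.78, 6.71 and 6.55. All 5 E15 control arrays lay below all 12 younger ones, and the log2 difference over both elements was −0.23 ± 0.061 (standard error, adjusted p 0.0127). Of the 36 genes only DTL, MCM3 and ORC1 had E15 arrays wholly below the younger ones in both elements together (8.33%, against 2.64% of all probe sets). ORC6, the smallest subunit, differed by −0.29 ± 0.11 in the tibia (adjusted p 0.108) and by −0.027 ± 0.13 in the femur. CDT1 and its inhibitor geminin (GMNN) showed little difference over both elements, at −0.035 ± 0.11 and 0.0083 ± 0.085, with 95% intervals of −0.26 to 0.19 and −0.17 to 0.19. For CDT1 the elements went opposite ways. Its mean went from 6.27 at E12 and E13 to 6.06 at E15 in the femur, and from 6.11 to 6.25 in the tibia. Neither change was called.

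Of the 5 subunits of the MCM helicase measured, 4 fell over both elements (MCM2, MCM3, MCM4 and MCM5), and MCM6 fell in the tibia. MCM3 read 7.28 to 7.79 in the younger femur (median 7.365) and 7.06 and 7.04 at E15. In the tibia it went from 7.33 to 7.62 (median 7.505) to 7.15, 7.07 and 6.70. Neither element's stages overlapped, and the difference was −0.45 ± 0.087 (adjusted p 0.00151). MCM5 read 7.29 to 7.93 in the younger femur (median 7.645) and 7.16 and 7.13 at E15, and in the tibia 7.37 to 7.69 (median 7.565) and then 7.48, 7.12 and 6.95. Here tibia replicate 1 stayed within the younger range, and the difference was −0.41 ± 0.096 (adjusted p 0.00555). MCM2 differed by −0.31 ± 0.087 (adjusted p 0.0152) and MCM4 by −0.28 ± 0.083 (adjusted p 0.0245), and both calls were lost without femur replicate 1 of E15 or without tibia replicate 3, and that of MCM4 also without femur replicate 2.

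MCM6 was the helicase subunit whose elements were farthest apart. It read 9.36 to 9.63 in the younger femur (median 9.50) and 9.49 and 9.40 at E15, which is the same range. In the tibia it read 9.45 to 9.71 (median 9.48) and then 9.41, 9.30 and 8.84, all below the younger arrays. The tibia difference was −0.35 ± 0.099 (adjusted p 0.0362) and the femur one −0.042 ± 0.11, but the femur change minus the tibia change, 0.30 ± 0.15, had an adjusted p of 0.493. The tibia call was lost in 4 of 8 alternatives, among them the array code as a block (adjusted p 0.0546), and in 4 of 9 fits that left out an array. Without E15 replicate 3 the difference was −0.17 (adjusted p 0.302). Here and below, the 8 alternatives include the probe set of highest SD, which repeats the main fit since each gene has 1 probe set.

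Of the genes that activate the helicase or travel with the fork, 1 of 6 fell, near the share of all probe sets (12.6%). MCM10, which helps to start the loaded helicase, read 6.54 to 7.06 in the younger femur (median 6.80) and 6.0 and 6.48 at E15. In the tibia it read 6.59 to 6.88 (median 6.72) and then 6.30, 6.58 and 6.12. The stages did not overlap within either element, and MCM10 had the lowest difference of the 36, −0.48 ± 0.097 over both elements (adjusted p 0.00219) and −0.56 ± 0.15 in the femur (adjusted p 0.0214). The femur value was −0.32 (adjusted p 0.364) without replicate 1, the array at 6.0, and −0.55 (adjusted p 0.085) with the array code as a block, which also lost the femur call of RRM1 (adjusted p 0.0704). CDC45, GINS1 and GINS3, parts of the active helicase, differed by −0.065 ± 0.061, −0.22 ± 0.096 and −0.092 ± 0.066, and CLSPN and TIPIN, which link the fork to the checkpoint, by −0.18 ± 0.091 and −0.094 ± 0.085. None of these 5 passed the test (adjusted p 0.114 to 0.472).

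Of the 4 polymerase and primase genes 2 fell in the tibia, 0 in the femur and 0 over both elements, and both tibia calls were lost without E15 replicate 3. The POLD3 call was lost in 5 of 9 fits that left out an array and in 2 of 8 alternatives, and that of PRIM2 in no other. PRIM2, the large primase subunit, read 6.90 to 7.18 in the younger tibia (median 7.06) and 6.68, 6.79 and 6.45 at E15, a difference of −0.40 ± 0.10 (adjusted p 0.0194). In the femur it read 6.80 to 7.15 (median 6.975) and then 6.83 and 7.07, within the same range. POLD3, an accessory subunit of polymerase delta, read 9.20 to 9.60 in the younger tibia (median 9.34) and 9.18, 9.11 and 9.06 at E15, a difference of −0.26 ± 0.072 (adjusted p 0.0306). Its femur arrays read 9.35 to 9.63 (median 9.49) and then 9.52 and 9.41. The difference between elements in this change was 0.37 ± 0.15 for PRIM2 and 0.21 ± 0.11 for POLD3, and neither passed (adjusted p 0.41 and 0.499). Over both elements the pair just missed the threshold (adjusted p 0.0565 and 0.0559). POLA1, the catalytic subunit of polymerase alpha, differed by −0.13 ± 0.064 and POLE2, an accessory subunit of polymerase epsilon, by −0.078 ± 0.067 (adjusted p 0.143 and 0.426).

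Of the 5 clamp loader genes 0 fell in either element or over both (limma, with RFC3 over both elements and RFC2 and RFC3 in the tibia at an unadjusted p under 0.05). RFC1, the large subunit of replication factor C, read 8.50 to 8.65 in the younger femur (median 8.58) and 8.40 and 8.44 at E15, and in the tibia 8.41 to 8.73 (median 8.52) and then 8.56, 8.48 and 8.31. The femur stages were apart and the tibia stages overlapped, with a difference over both elements of −0.12 ± 0.063 (adjusted p 0.178). The small subunits RFC2, RFC3 and RFC4 differed by −0.11 ± 0.067, −0.22 ± 0.082 and −0.060 ± 0.067 (adjusted p 0.237, 0.0605 and 0.552). DSCC1, part of an alternative clamp loader that also serves sister chromatid cohesion, differed by 0.014 ± 0.076, with a 95% interval of −0.15 to 0.17.

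Among the genes that finish the lagging strand or hold single-stranded DNA, 2 of 3 fell. LIG1, the ligase that seals the fragments, read 6.35 to 6.82 in the younger femur (median 6.61) and 6.02 and 6.38 at E15. In the tibia it read 6.42 to 6.83 (median 6.555) and then 6.19, 6.31 and 6.30, all below the younger arrays. The difference was −0.37 ± 0.10 (adjusted p 0.0184) and was −0.28 (adjusted p 0.145) without femur replicate 1. RPA2, a subunit of the single-strand binding protein, differed by −0.28 ± 0.090 (adjusted p 0.0329), from 8.34 to 8.62 to 8.30, 8.20 and 8.02 in the tibia and from 8.13 to 8.77 to 8.16 and 8.22 in the femur, where the stages overlapped. Its call was lost with the array code as a block and in 4 of 17 fits that left out an array. FEN1, the flap endonuclease, differed by −0.11 ± 0.098 (adjusted p 0.437).

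Both ribonucleotide reductase genes fell. RRM1, the large subunit, read 9.63 to 9.91 in the younger femur (median 9.73) and 9.37 and 9.49 at E15, and 9.74 to 9.89 in the tibia (median 9.765) and then 9.67, 9.36 and 9.17. No E15 array overlapped the younger arrays of its own element, and the difference was −0.35 ± 0.063 (adjusted p 9.97e-04). RRM2, the small subunit that is made in S phase, fell by 0.23 on the log2 scale (standard error 0.060, adjusted p 0.0098). Its femur stages overlapped (8.53 to 8.82, then 8.54 and 8.60) and its tibia stages did not (8.70 to 8.82, then 8.55, 8.44 and 8.22). TYMS, which makes thymidylate, differed by −0.18 ± 0.072 (adjusted p 0.0866).

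Of the genes for chromatin assembly, copying of DNA methylation and histone mRNA, 1 of 4 fell over both elements and 1 in the tibia. CHAF1B, a subunit of chromatin assembly factor 1, differed by −0.23 ± 0.079 (adjusted p 0.0457), and 5 of 8 alternatives and 10 of 17 fits without an array lost the call. Its partner CHAF1A differed by −0.12 ± 0.072 (adjusted p 0.236). UHRF1, which brings the maintenance DNA methyltransferase to newly copied DNA, read 9.53 to 9.67 in the younger tibia (median 9.60) and 9.48, 9.46 and 9.05 at E15 (−0.27 ± 0.082, adjusted p 0.0494), and 9.43 to 9.62 (median 9.50) and then 9.47 and 9.54 in the femur. The tibia call of UHRF1 was lost in 6 of 8 alternatives, among them the array code as a block (adjusted p 0.103), and in 7 of 9 fits without an array, and the difference was −0.13 (adjusted p 0.373) without E15 replicate 3. SLBP, which binds the stem-loop of histone mRNA, missed the threshold at −0.26 ± 0.095 (adjusted p 0.0551).

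Of the last pair 1 fell. DTL, the adaptor of the ubiquitin ligase that removes CDT1 in S phase, read 8.25 to 8.59 in the younger femur (median 8.395) and 8.01 and 7.97 at E15. In the tibia it read 8.29 to 8.58 (median 8.37) and then 8.13, 7.91 and 7.70. The stages were apart in both elements, and the difference was −0.45 ± 0.068 (adjusted p 2.35e-04). DTL stayed called over both elements in all 8 alternatives and in all 17 fits that left out an array, with adjusted p up to 0.00348. RRM1, MCM3, MCM10 and MCM5 did so as well, with adjusted p up to 0.0346. The probe set rule among the 8 alternatives repeats the main fit, so it could not lose a call. CCNE2, a cyclin of S phase entry, was the one gene with E15 femur arrays wholly above the younger ones (6.51 to 7.03, then 7.07 and 7.10, against 13.1% of all probe sets). Its femur difference of 0.29 ± 0.12 did not pass (adjusted p 0.12), and in the tibia it was 0.025 ± 0.10. Counted over all 36, the E15 arrays lay wholly below the younger ones for 9 genes in the femur (25%, against 13.5% of all probe sets) and for 18 in the tibia (50%, against 8.79%).

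**Figure D3:**
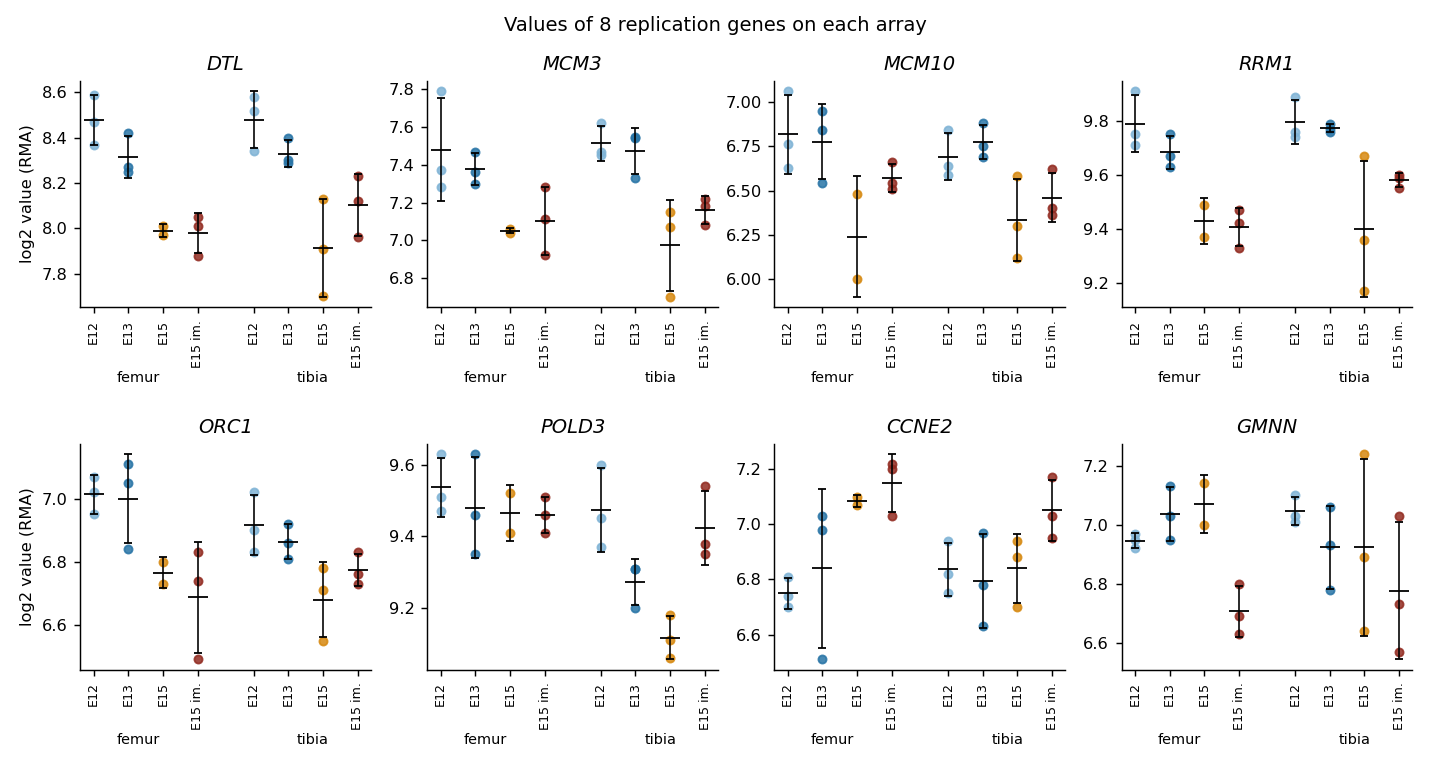
Points give the log2 value of 8 genes on each array, in femur (left) and tibia (right) at E12, E13, E15 and E15 immobilised (E15 im.), with bars for the group mean and SD over 2 or 3 arrays. DTL, MCM3, MCM10, RRM1 and ORC1 step down at E15 in both elements, POLD3 is lowest in the E15 control tibia, CCNE2 is high at E15 in the femur, and GMNN is low in the immobilised femur.

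The younger stages were also compared with each other. For E13 minus E12 over both elements 0 of the 36 genes were called and 0 of all probe sets (limma, 3 of the 36 at an unadjusted p under 0.05, and SAM, significance analysis of microarrays, called 0 of the 36). The median was −0.068 and 30 of 36 lay below 0 against 51.5% of all probe sets. The 3 with the lowest p were CHAF1A at −0.20 ± 0.077, POLD3 at −0.13 ± 0.058 and DTL at −0.16 ± 0.073. The mean fell in the order E12, E13, E15 for 20 of 36 genes in the femur (against 24.4% of all probe sets), for 26 in the tibia (against 24.5%) and for 15 in both (against 11.3%), a count with no test. No E13 femur array shares its array code with an E12 or E15 femur array. Code and stage thus cannot be told apart in the femur order or in the femur part of E13 minus E12.

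Femur and tibia were then compared at each stage. At E12 and E13 0 of 36 genes were called (0.0545% of all probe sets, limma, 1 of the 36 at an unadjusted p under 0.05), the median was −0.018, and 23 of 36 lay below 0 against 53.3% of all probe sets. At E15 in controls 0 were called (0.209% of all probe sets, 2 of the 36 at an unadjusted p under 0.05) and the median was 0.083, or 0.025 without tibia replicate 3. The femur arrays lay wholly above the tibia arrays for POLD3, PRIM2, CCNE2, RFC2, CDC45 and FEN1 (6 of 36, 16.7%, against 16.4% of all probe sets) and wholly below for TYMS and CDT1 (5.56%, against 16.1%). POLD3 had the lowest p, with 9.52 and 9.41 in the femur and 9.18, 9.11 and 9.06 in the tibia, a difference of 0.35 ± 0.092 that did not pass (adjusted p 0.108). In immobilised cartilage 0 of 36 were called (2.04% of all probe sets, 0 of the 36 at an unadjusted p under 0.05) and the median was −0.048. SAM called 0 of the 36 in each of these 3 comparisons. It is coarse here, with 10 regroupings of the arrays for E15 controls and 20 for immobilised cartilage. At E12 and E13 its estimated false discovery rate was 9.25%.

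The effect of immobilisation on the 36 genes was measured as immobilised minus control at E15. In the femur 0 of 36 were called (4.39% of all probe sets, limma, 2 of the 36 at an unadjusted p under 0.05), the median was −0.045, and 24 of 36 lay below 0 against 49.8% of all probe sets. CDC45 read 8.29 and 8.36 in control femur and 8.01, 8.14 and 7.98 in immobilised femur, a difference of −0.28 ± 0.10 (adjusted p 0.138). GMNN read 7.0 and 7.14 and then 6.63, 6.80 and 6.69, a difference of −0.36 ± 0.14 (adjusted p 0.166). The arrays of both genes did not overlap between treatments. Nor did those of RPA2, DSCC1, RFC4, UHRF1, RFC2, POLE2 and MCM6, lower when immobilised (9 of 36, 25%, against 17.8% of all probe sets), and of RFC1, MCM10, CHAF1B and POLA1, higher (4 of 36, 11.1%, against 18.6%). With 2 control arrays, shares without overlap are high for all probe sets.

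In the tibia 1 of 36 genes rose with immobilisation, POLD3 (2.78%, against 2.88% of all probe sets that rose), and 0 fell (2.86%). Its tibia arrays read 9.18, 9.11 and 9.06 in controls and 9.35, 9.38 and 9.54 after immobilisation, with no overlap and a difference of 0.31 ± 0.083 (adjusted p 0.036). The immobilised values lay inside the range of the younger control tibia (9.20 to 9.60). The call was lost in 4 of 8 alternatives, among them the array code as a block (adjusted p 0.0546), in SAM and in 5 of 6 fits that left out an array. Within code 09 the difference was 0.35 and within code 07 0.23. PRIM2 and POLA1 also read higher in every immobilised tibia array than in every control one, at 0.26 ± 0.12 and 0.23 ± 0.097 (adjusted p 0.24 and 0.195), as did CCNE2 at 0.21 ± 0.12 (adjusted p 0.37). These 4 of 36 make 11.1%, against 13.1% of all probe sets, and 0 of 36 were wholly lower, against 10.9%.

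The tibia median was 0.11 and 12 of 36 lay below 0 (48.5% of all probe sets). Without control tibia replicate 3 it was 0.027, with 15 of 36 below 0. The femur effect minus the tibia effect was called for 0 of 36 genes (0.182% of all probe sets, limma, 2 of the 36 at an unadjusted p under 0.05). Its median was −0.14, with 28 of 36 below 0 against 52.4% of all probe sets. Without control tibia replicate 3 the median was −0.078, with 25 of 36 below 0. POLD3 had the lowest p at −0.31 ± 0.12 (adjusted p 0.459), followed by CDC45 at −0.30 ± 0.14 (adjusted p 0.556).

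Averaged over both elements, immobilisation changed 0 of the 36 genes (11.6% of all probe sets, limma, 4 of the 36 at an unadjusted p under 0.05, and SAM called 0). The median was 0.026, or 0.011 without control tibia replicate 3, and 16 of 36 lay below 0 against 48.4% of all probe sets. DSCC1 came nearest to the threshold, with 7.69 and 7.72 in control femur against 7.28, 7.66 and 7.46, and 7.86, 7.50 and 7.97 in control tibia against 7.60, 7.39 and 7.49. The tibia arrays overlapped, and the difference was −0.26 ± 0.086 (95% interval −0.44 to −0.079, adjusted p 0.0596). GMNN followed at −0.26 ± 0.096 (adjusted p 0.0994) and RFC1 at 0.18 ± 0.071 (adjusted p 0.116). For DTL, RRM1 and MCM3, which fell with stage, the intervals of the immobilisation effect ran from −0.073 to 0.25, from −0.073 to 0.23 and from −0.088 to 0.33.

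**Figure D4:**
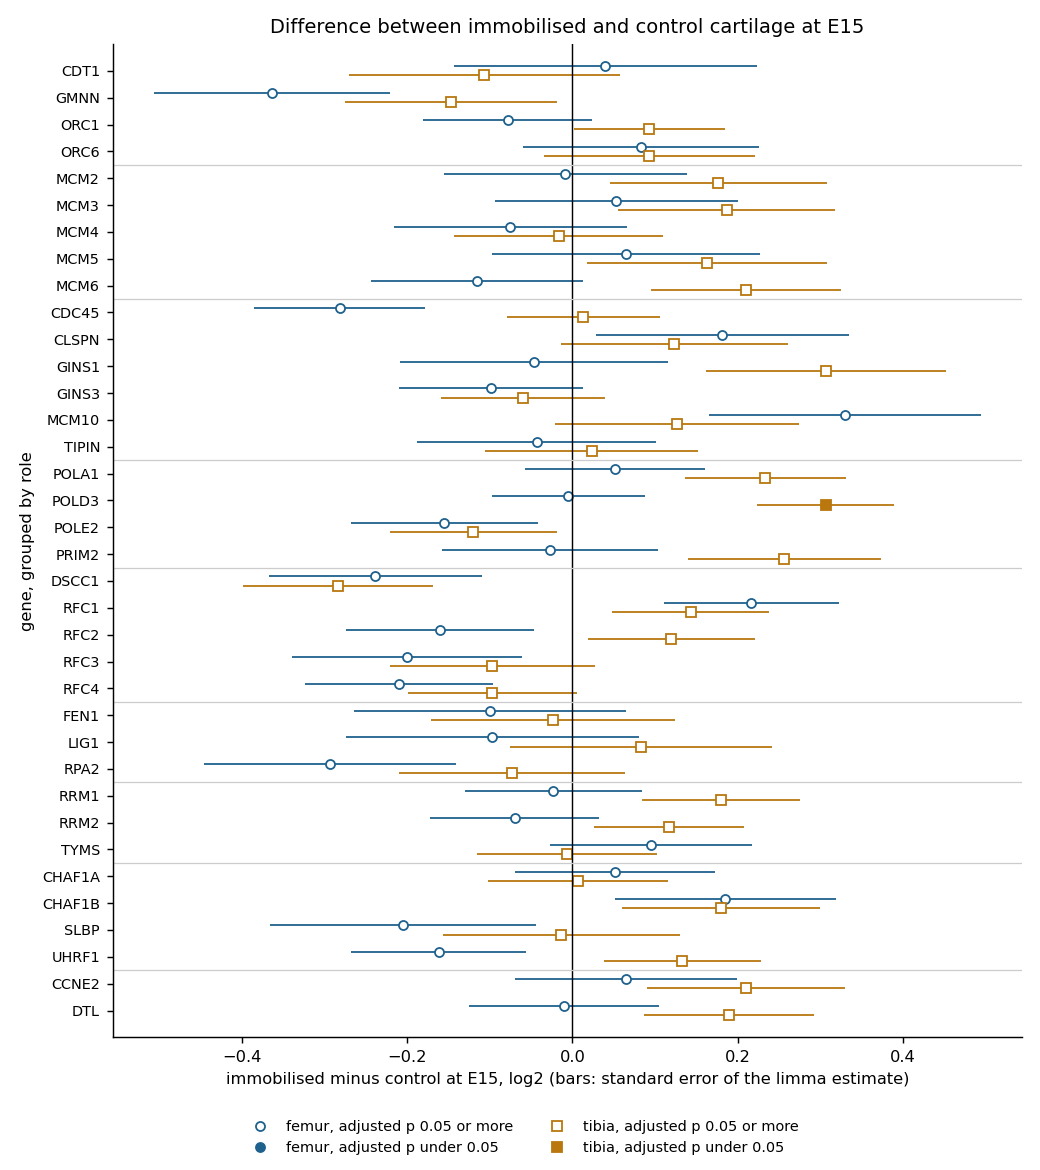
For each of the 36 genes the points give the log2 difference of immobilised minus control at E15 in femur (circles) and tibia (squares), with the standard error of the limma estimate, and filled points have an adjusted p under 0.05. The only filled point is POLD3 in the tibia (0.31), femur points lie on both sides of 0 (24 below, 12 above), and tibia points lie mostly to the right (24 above, 12 below).

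Immobilised cartilage at E15 was also set against the younger controls. The control arrays of E12 and E13 are the same as in the stage comparison, so its values are given side by side with those of control E15 and not as separate support. Of the 36 genes 18 fell (50%, against 13.4% of all probe sets) and 1, CCNE2, rose (2.78%, against 12.6%). The median was −0.19 and 32 of 36 lay below 0 against 49.7% of all probe sets. DTL differed by −0.36 ± 0.063 in immobilised and by −0.45 ± 0.068 in control E15 cartilage, RRM1 by −0.27 ± 0.059 and −0.35 ± 0.063, and MCM3 by −0.33 ± 0.081 and −0.45 ± 0.087. RPA2 differed by −0.46 ± 0.084 and −0.28 ± 0.090, RFC3 by −0.37 ± 0.076 and −0.22 ± 0.082, and SLBP by −0.37 ± 0.088 and −0.26 ± 0.095. All 6 immobilised arrays lay below all 12 younger arrays for DTL, RFC3 and RRM1 (8.33%, against 2.44% of all probe sets).

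Several genes were called in only one of these 2 fits, and the direct difference between immobilised and control E15 cartilage was not called for any of them. GMNN differed by −0.25 ± 0.078 from the younger controls when immobilised (adjusted p 0.0279) and by 0.0083 ± 0.085 in E15 controls. DSCC1 differed by −0.25 ± 0.070 (adjusted p 0.0154) and by 0.014 ± 0.076, and the first was −0.19 (adjusted p 0.0787) with the array code as a block. That block lost 4 of the 19 calls against the younger controls (CDC45, DSCC1, MCM2 and GINS3). CCNE2 read 7.03, 7.22 and 7.20 in immobilised femur and 7.17, 7.03 and 6.95 in immobilised tibia, 0.30 ± 0.074 above the younger controls (adjusted p 0.00674), and 0.16 ± 0.079 above them in E15 controls. MCM10 was called in controls only, at −0.48, and stood at −0.25 ± 0.090 when immobilised (adjusted p 0.0503).

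Other genes of the cell cycle were counted from lists of their kind, chosen with results of these data known. The counts with stage stand against 12.6% of all probe sets that fell and 10.8% that rose. Those of the E2F list are not far from these shares. Of 18 further replication genes past the filter, 7 fell with stage over both elements and 0 rose, among them HELLS, a chromatin remodeller of replicating cells (−0.25 ± 0.068), DUT, which removes dUTP (−0.25 ± 0.071), RPA1 (−0.17 ± 0.049) and RPA3 (−0.29 ± 0.086), the partners of RPA2. Of 15 genes of E2F control and S phase entry 3 fell, MYBL2 (−0.28 ± 0.058), CCND1 (−0.19 ± 0.050) and E2F4 (−0.24 ± 0.078), and 1 rose, E2F3 (0.46 ± 0.11). Of 13 genes of the replication checkpoint and repair 3 fell and 0 rose. Among these genes WEE1, a kinase that holds back mitosis, was at −0.36 ± 0.057. The mean deviation of the checkpoint list was −0.33 on E15 control tibia replicate 3, against −0.15 to 5.8e-05 on the other E15 control arrays. Counts of these lists are not given without that array.

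Genes of later cell cycle phases and of cell cycle exit were counted in the same comparison. The mean deviation of the G2 and mitosis list was −0.047 and 0.025 in E15 control femur. In E15 control tibia it was 0.033, −0.075 and, on replicate 3, −0.28. The mean of that list thus leans on replicate 3, and the count below is not given without it. Of 34 genes of G2 and mitosis 10 fell (29.4%, against 12.6% of all probe sets), 0 rose and the rest did not pass, with a median of −0.083, and KIF4A, a mitotic kinesin, was at −0.36 ± 0.069 and TOP2A, the topoisomerase of dividing cells, at −0.29 ± 0.072. Of 9 genes for CDK inhibitors and quiescence 5 rose (55.6%, against 10.8%) and 0 fell, with a median of 0.21, and the 5 were TOB2 (0.58 ± 0.087), BTG2 (0.57 ± 0.098), CDKN2C (0.50 ± 0.12), CDKN1B, the inhibitor p27 (0.41 ± 0.10), and TOB1 (0.21 ± 0.061). With immobilisation over both elements, 1 of the 18 replication genes fell (ASF1A, a histone chaperone, −0.21 ± 0.059), against 5.72% of all probe sets. Of the 34 genes of G2 and mitosis 2 fell, CDK1 (−0.26 ± 0.062) and PTTG1 (−0.29 ± 0.082), against the same 5.72%. CKAP2 of that list rose (0.23 ± 0.071), against 5.89% of all probe sets. These counts are near or below the shares of all probe sets, so they say little about the lists.

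**Figure D5:**
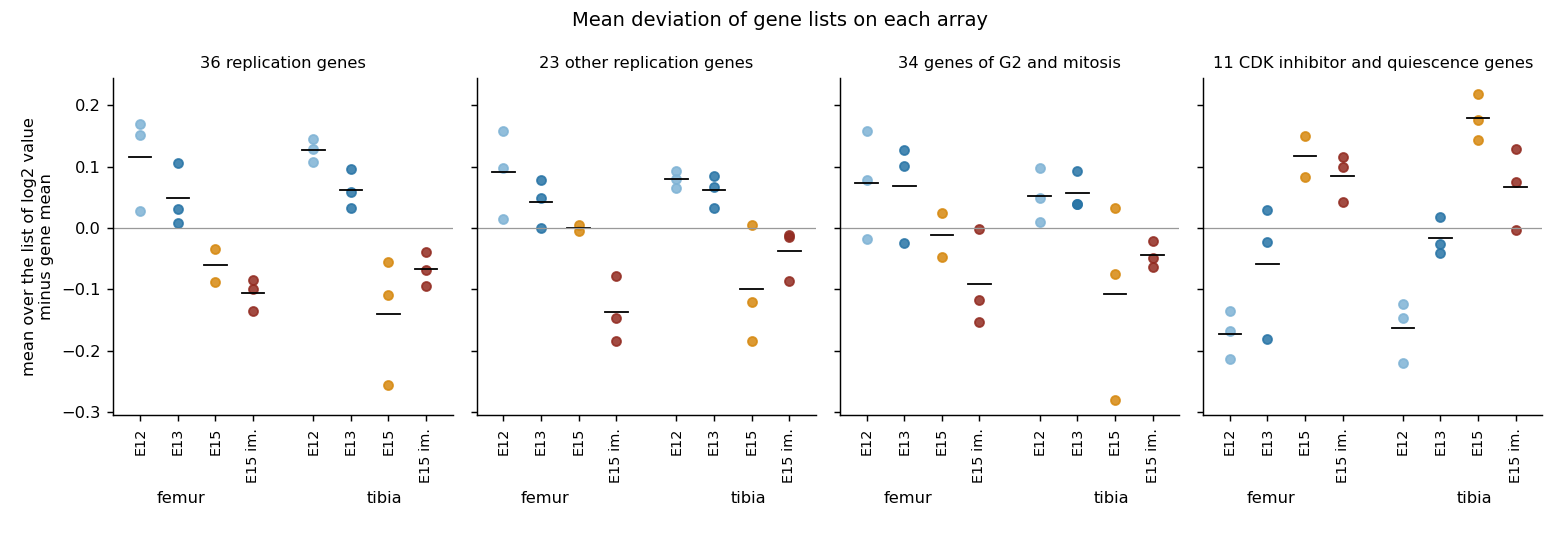
Each point is 1 array and gives the mean over a list of the log2 value minus the gene's mean over 23 arrays, with a line at the group mean, for the 36 genes and 3 other lists in femur and tibia. The 36 genes lie above 0 on all 12 arrays of E12 and E13 and below 0 on all 11 arrays of E15, and the CDK inhibitor and quiescence list runs from below 0 at E12 to above 0 in E15 controls.

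Marker mRNAs of cell types in the tissue moved with stage and treatment as well. Whether the cell types themselves changed in number was not tested. Counts below are over the markers past the filter and summed levels over all markers of a list on the array, by array. With stage over both elements 12.6% of all probe sets fell and 10.8% rose. With immobilisation over both elements 5.72% fell and 5.89% rose. The cartilage markers (the matrix genes ACAN, COL9A1, COL11A1, HAPLN1, MATN1 and MATN3 and the regulator SOX9) were abundant on all arrays, with summed linear levels of 37150 to 42330, and 2 of 7 rose and 2 fell with stage. Of 7 markers of hypertrophic chondrocytes 5 rose and 1 fell, with summed levels of 5649 to 10680 at E12 and E13 and 10100 to 13670 in E15 controls, and 7585 to 12750 when immobilised. By element at E15, this sum was 10910 to 11290 in control femur and 10350 to 12750 in immobilised femur. In the tibia it was 10100 to 13670 in controls and 7585 to 9862 when immobilised, without overlap. All 8 leukocyte and osteoclast markers past the filter rose with stage (814.5 to 1507 at E12 and E13, 1922 to 3205 in E15 controls, 1412 to 2422 when immobilised), although the methods state that marrow, red blood cells and ossified bone were dissected away. Among them the osteoclast gene DCSTAMP had the lowest group means, 2.72 to 4.56 on the log2 scale, under the median of the arrays. Of 7 erythroid markers 4 rose and 2 fell (6160 to 9056, then 10590 to 14080, and 8731 to 14830 when immobilised), and of 9 endothelial markers 3 rose and 1 fell (2285 to 3132, then 2828 to 3695, and 3046 to 3387 when immobilised). The erythroid sum at E15 was 10590 to 11620 in control femur and 9841 to 14830 in immobilised femur. In the tibia it was 12280 to 14080 and then 8731 to 9315, without overlap. Leukocyte and endothelial sums overlapped between treatments in each element. Skeletal muscle markers fell for 8 of 13 with stage (2854 to 5178, then 1379 to 3176) and for 12 of 13 with immobilisation (319.6 to 702.1). In E15 controls, tibia replicate 3 gave the upper ends 13670 (hypertrophic) and 3205 (leukocyte and osteoclast) and the lower end 1379 (muscle). The part that these shifts have in the values of the 36 genes was not tested.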

How the data were processed

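RNA of pooled cartilage was hybridised to Affymetrix chicken arrays. The authors deposited 1 log2 value per probe set and array, background-corrected, quantile-normalised and summarised by RMA. The labels name affy and the methods aroma.affymetrix, without versions (not given in the sources used here, like the annotation build). RMA tends to compress fold differences. Probe sets were named from GEO's platform annotation (12300 with 1 symbol, 256 with several, 8248 with none), and several symbols were updated through their gene identifier.

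The values were kept as deposited. After a filter (linear SD above 10), 8 group means were fitted with limma 3.58.1 (R 4.3.3) on 23 arrays, leaving 15 residual degrees of freedom, with two-sided moderated tests and Benjamini-Hochberg adjustment over 11004 probe sets at 0.05. This replaced the SAM test of the methods, which was run as an alternative with at most 100 permutations. Groups came from the sample labels. No array has a read depth, and the number of arrays limits precision. The fit was tested on simulated data.

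The 36 genes and all lists were chosen with earlier results of these data known. Values are given for members called in a stage or immobilisation comparison, for at least 1 member of each role, for the nearest misses, and for up to 4 genes of lowest p in other lists, plus further members by count or range. Alternatives covered the filter, renormalisation, the array code, the replicate number, array weights, the groups fitted, the probe set rule, SAM and leaving out each array.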

Additional observations from a re-analysis of the deposited data

How the results depend on the processing

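Among the values for single genes under the alternatives run, 152 lost a call, 48 gained one and none changed direction after being called. The femur stage count of 4 genes became 2 with no filter, 2 with the array code as a block, 7 with array weights, 0 with only the compared groups fitted and 1 in SAM, and ranged from 0 to 5 with an array left out. The tibia count of 9 became 5 with no filter, 5 with only the compared groups and 17 in SAM, and ranged from 1 to 10. The code block lost 3 of the 9 (MCM2, MCM6 and UHRF1) and the replicate block 2 (MCM2 and UHRF1). Over both elements 12 became 18 in SAM and ranged from 5 to 16. For immobilisation, the femur count of 0 became 1 with array weights. The tibia count of 1 became 0 with no filter, the code block, the replicate block, only the compared groups or SAM, and ranged from 0 to 2. Over both elements 0 became 1 with the replicate block and 1 with array weights, and ranged from 0 to 1. Immobilised against younger controls ranged from 14 to 20 around 19, and the code block lost 4 of the 19. The cause of these shifts was not tested.

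Same-numbered arrays of different groups did not deviate together (r from −0.17 to 0.066 over 16 pairs), so the replicate numbers were not taken as pairs. That check covers same numbers only, and cannot show whether femur and tibia pools shared embryos under other numbers. Taking the probe set of highest SD, which is among the 8 alternatives, could change nothing, since each gene has 1. With 2 E15 control femur arrays, femur differences are the least precise.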
